A study of Mus musculus with 28 samples.

Results

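A set of 10 genes of the fat lineage and of leptin sensing was followed through the bone marrow niche of wild-type and Flt3-ITD mice. They were the rows of the table of gene counts with the symbols Pparg, Cebpd, Ebf2, Zfp423, Lepr, Lpl, Apoe, Fabp4, Plin1 and Adipoq, 10 of 25251 genes, and each symbol matched 1 row. The study asked how a Flt3 internal tandem duplication (ITD), a mutation of acute myeloid leukemia, alters the cells that house hematopoietic stem cells. RNA was sequenced from C57BL/6 mice aged 8 to 10 wk, either Flt3+/+ or homozygous for a knock-in ITD allele that all cells carry (Flt3ITD/ITD). Endothelial cells (ECs, CD45-Ter119-CD31+) and mesenchymal stromal cells (MSCs, CD45-Ter119-CD31-CD166-Sca1+) were sorted from bone lining cells released by collagenase, 100 cells per library and 5 libraries per genotype. Bone marrow mononuclear cells (MNCs), 200 per library and 4 libraries per genotype, stood for the blood-forming marrow; their labels name them both as marrow MNCs and as bone lining cells. The MSC gate required Sca1, so stromal cells without Sca1 were not sampled, and no group held sorted adipocytes.

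In fat tissue and in the marrow, mesenchymal progenitors become adipocytes through a relay of transcription factors. Zfp423 and Ebf2 mark committed progenitors, the C/EBP proteins act early, and Pparg drives the genes of the mature cell, among them the lipid carrier Fabp4, the lipid droplet coat Plin1 and the hormone Adipoq (adiponectin). Lpl (lipoprotein lipase) frees fatty acids from circulating lipoproteins, to which Apoe binds as a ligand for uptake. In the marrow, stromal cells that carry the leptin receptor Lepr surround the sinusoids, are a main source of Cxcl12 and Kitl (stem cell factor), and give rise to adipocytes in the adult. Fabp4 and Pparg also belong to capillary endothelium, which passes fatty acids from blood to tissue.

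Total counts per library ranged from 6377013 to 33880743, and a count of 3 was taken as the floor of detection, which covers counting error only. The defining markers of the sorts were high where the labels place them. The 7 endothelial markers summed to 1561 to 2222 RPKM (read counts scaled by transcript length and library depth) in ECs and to between 6.74 and 22 in MSCs. The mesenchymal markers Pdgfra (61.4 to 107 RPKM) and Dcn were high in every MSC library, and Pdgfra reached at most 1.82 in ECs. All 8 mesenchymal markers summed to 29060 to 33480 RPKM in MSCs and to 3490 to 6189 in ECs. In ECs, however, Dcn was at most 54.6, Lum 22.3, Col1a2 9.85, Col3a1 4.57 and Col1a1 1.27 RPKM. The EC sum thus came mostly from the remaining markers, Ly6a (the gene of Sca1) and Pdgfrb. MSCs also held bone genes, whose 7 osteoblast markers summed to 1796 to 3319 RPKM in Flt3+/+ and 157 to 2826 in Flt3ITD/ITD libraries. The 4 chondrocyte markers summed to 90.7 to 226 and 37.1 to 105 RPKM there, respectively. The leukocyte gene Ptprc (CD45) was 125 to 161 RPKM in MNCs and at most 0.53 in MSCs, but 4.57 in Flt3ITD/ITD EC replicate 2. The 10 leukocyte markers summed to 434 RPKM in Flt3ITD/ITD MSC replicate 5 and to 177 or less in the other MSC libraries. The leukocyte sum reached 580 RPKM in Flt3ITD/ITD EC replicate 2. ECs also held genes of smooth muscle and pericytes, whose 6 markers summed to 195 to 1214 RPKM there and to 20.2 to 170 in MSCs (Rgs5 alone 49.1 to 967 in ECs). The erythroid markers summed to 98.7 RPKM in Flt3+/+ EC replicate 1 and to at most 2.06 in the other ECs. By the methods each library of a population came from 1 mouse, and which libraries of different populations shared a mouse is not stated. An internal duplication leaves reads on the same gene, so the counts of Flt3 could not check the genotype labels.

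**Figure D1:**
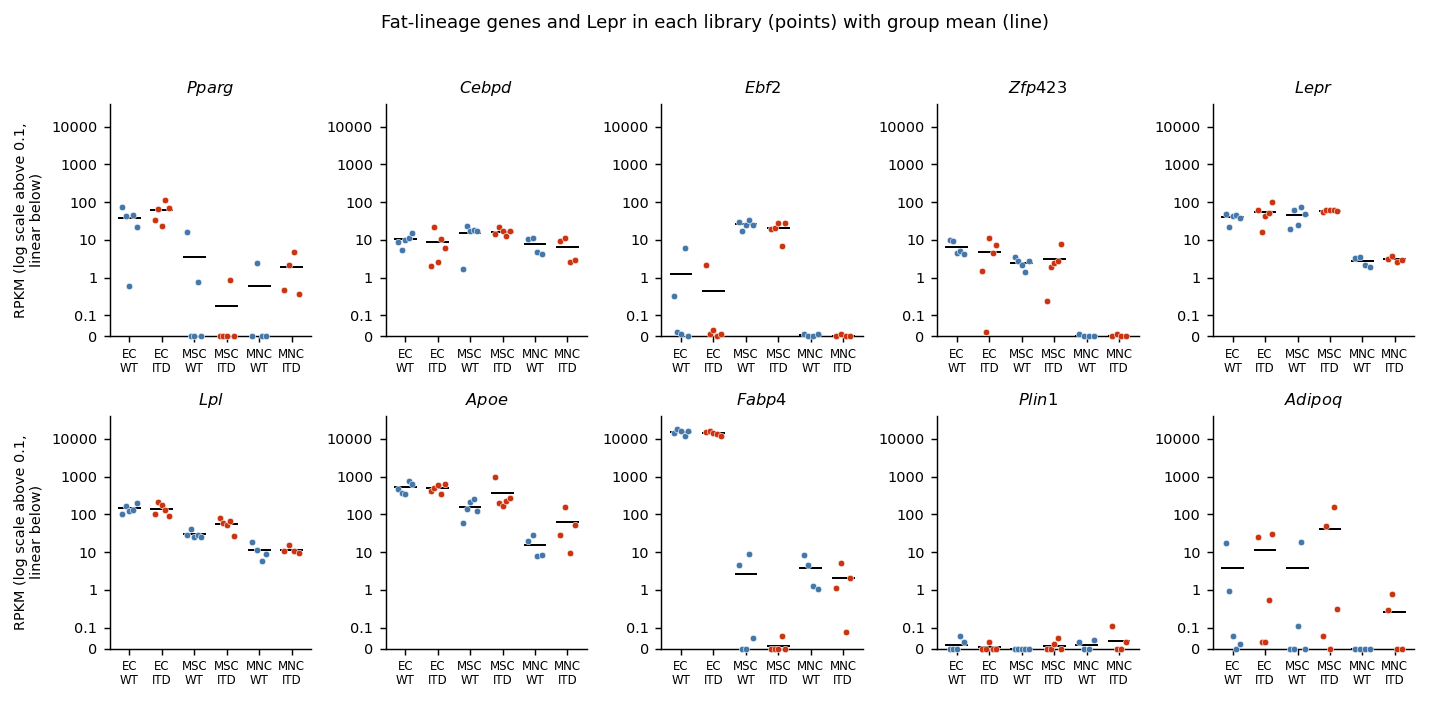
RPKM of each of the 10 genes (panels) in every library (points, blue for wild type and red for Flt3-ITD) of ECs, MSCs and MNCs, with the group mean as a black line. The axis is logarithmic above 0.1 and linear below. Fabp4 stood above 11000 RPKM in all EC libraries, Ebf2 was highest in MSCs, Lepr was high in ECs and MSCs, and Plin1 stayed near 0 in all 6 groups.

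The genes did not share 1 pattern across the populations. In Flt3+/+ marrow the lipid-handling members Fabp4, Lpl and Apoe had their highest mean RPKM in ECs. So did the nuclear receptor Pparg and the progenitor factor Zfp423 (6.51 RPKM in ECs against 2.49 in MSCs). The progenitor factor Ebf2 was highest in MSCs, and Lepr was at like levels in both. With edgeR's quasi-likelihood test over 16897 genes, where a call required an adjusted p below 0.1 together with group mean RPKM that differed by at least 1 on the log2 scale, 9 of the 10 genes could be tested and Plin1 could not. Between MSCs and ECs, 1 gene was called higher in MSCs (Ebf2) and 3 lower (Lpl, Apoe and Fabp4), where 13.6% of all genes tested were called higher and 11.7% lower. Against MNCs, 6 of the 9 were called higher in MSCs (19.1% of all genes) and 8 of the 9 higher in ECs (19.2% of all genes), and none lower (16.9% and 17.7% of all genes, respectively). By RPKM, 1 member lay wholly above (7.24% of all genes) and 4 wholly below (8.84%) in MSCs against ECs, and 5 lay wholly above MNCs in MSCs (16.4%) and 5 in ECs (15.0%). The median log2 fold change of the 9 genes was 3.32 for MSCs and 5.81 for ECs against MNCs, where the medians of all genes were 0.00 and 0.04. Ebf2, Zfp423 and Adipoq, with 2, 1 and 0 counts in Flt3+/+ MNCs, entered these tests only through their levels in MSCs or ECs. They could come out only higher than MNCs, and they are among the 6, among the 8 and in both medians. In these bulk samples, a higher level in each cell and a larger share of expressing cells cannot be told apart. Bone lining cells were released with collagenase, and whether the MNCs were treated likewise is not stated. Of the immediate-early genes, 12 of 15 were called higher in ECs and in MSCs than in MNCs, their summed level being 1909 to 5810 RPKM in ECs and MSCs and 185 to 1360 RPKM in MNCs. The part of this in the contrasts with MNCs was not tested.

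**Figure D2:**
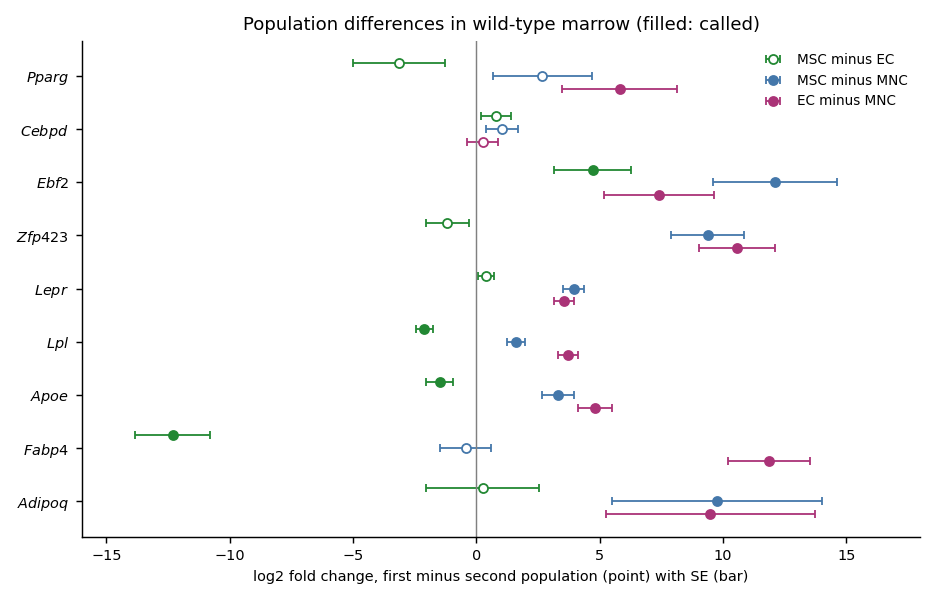
Log2 fold change between populations of wild-type marrow (points) with its standard error (bars) for the 9 genes tested, in green for MSCs minus ECs, blue for MSCs minus MNCs and purple for ECs minus MNCs. Filled points were called. Fabp4 lay at -12.30 between MSCs and ECs while Lepr lay at 0.39, and fitted values of Adipoq, Ebf2 and Zfp423 against MNCs rest on 0 to 2 counts in MNCs.

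Ebf2, an early B-cell factor that marks adipogenic precursors (chr14:67233292-67430918, plus strand), was the member that set MSCs apart. Its RPKM was 30.02, 17.4, 24.01, 34.5 and 25.03 in the 5 Flt3+/+ MSC libraries and 18.8, 20.1, 28.3, 6.69 and 27.7 in the 5 Flt3ITD/ITD ones. In ECs it was at most 0.32 in 8 of 10 libraries, with 5.96 in Flt3+/+ replicate 4 and 2.22 in Flt3ITD/ITD replicate 1. Every MSC library was thus above every EC library. In Flt3+/+ mice the log2 fold change of MSCs over ECs was 4.71 ± 1.57 (SE, adjusted p = 0.0338), and it was 8.49 without EC replicate 4. The 4 Flt3+/+ MNC libraries held 2 Ebf2 counts in all. The summed counts per summed totals gave a ratio of 5062 for MSCs over MNCs (exact Poisson 95% interval 1401 to 41802, counting error only). The call of ECs over MNCs rested on EC replicate 4, since without it the adjusted p was 0.149.

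Zfp423, a zinc-finger factor that commits preadipocytes (chr8:87661810-87959595, minus strand), was present in both niche populations and nearly absent from MNCs. In Flt3+/+ mice its RPKM was 3.47, 2.73, 2.11, 1.38 and 2.75 in MSCs and 9.71, 9.16, 4.36, 5.12 and 4.18 in ECs, so the EC libraries lay above the MSC libraries without overlap. That difference was not called (log2 fold change of MSCs over ECs -1.18 ± 0.87, adjusted p = 0.382). In Flt3ITD/ITD ECs it was 1.48, 0.02, 11.3, 4.38 and 7.27 RPKM, replicate 2 holding 3 counts, at the floor. There ECs and MSCs overlapped (-0.47, adjusted p = 0.76 in edgeR's quasi-likelihood test). Of the 8 MNC libraries, 2 held a single Zfp423 count each and 6 held none. Both contrasts with MNCs were called. The ratios of summed counts were 871 for MSCs (exact Poisson 95% interval 156 to 34419) and 2294 for ECs (412 to 90591). Both intervals cover counting error only.

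Cebpd (chr16:15887286-15891031, plus strand), a C/EBP factor induced at the start of adipogenesis and in inflammation, was the most evenly spread of the factors. Its mean RPKM in Flt3+/+ mice was 15.4 ± 7.97 (SD, n = 5) in MSCs, 10.3 ± 3.64 (n = 5) in ECs and 7.67 ± 3.63 (n = 4) in MNCs, and none of the 3 population contrasts was called. MSC replicate 1, the shallowest Flt3+/+ MSC library with 12300624 counts, had 1.72 RPKM where the other 4 had 17.4 to 22.7. Without it, MSCs were called above MNCs (log2 fold change 1.34, adjusted p = 0.0928). Its relatives differed: Cebpb was called higher in MSCs than in ECs (12.4 against 1.70 RPKM, adjusted p = 0.00108), and Cebpa was 1.03 and 1.35 RPKM, with no call.

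Pparg (chr6:115360951-115490399, plus strand), the nuclear receptor that completes fat cell differentiation, was an EC gene in these samples. In Flt3+/+ ECs its RPKM was 74.1, 42.0, 0.61, 45.7 and 22.2, and in Flt3ITD/ITD ECs it was 33.7, 66.9, 23.9, 114 and 71.9. In MSCs it was at 0 counts in 7 of the 10 libraries. The other three MSC libraries were Flt3+/+ replicate 1 with 16.6 RPKM, Flt3+/+ replicate 4 with 0.76 and Flt3ITD/ITD replicate 4 with 0.88. With replicate 1 in the fit, the contrast of Flt3+/+ MSCs with ECs was not called (log2 fold change -3.14 ± 1.85, adjusted p = 0.254). Without that library it was called (-7.25, adjusted p = 0.0258), as it was between the Flt3ITD/ITD groups, whose values did not overlap (-7.90, adjusted p = 0.0163). ECs were called above MNCs (5.81 ± 2.33, adjusted p = 0.0584), a call lost without any one of MNC replicates 1, 3 and 4 (adjusted p up to 0.13). Of a list of 20 further adipogenic transcription factors, 19 were tested. In MSCs against ECs, Cebpb alone was called higher and Prdm16, Gata2 and Gata3 lower. Against MNCs, 8 of the 19 were called higher and 1 lower (Gata2) in MSCs, and 9 higher and 1 lower (Cebpb) in ECs, beside the shares of all genes given above. Of those called in MSCs, Klf4, Ebf1, Nr3c1 and Foxo1 had the highest mean level there (229, 60.5, 43.0 and 21.7 RPKM). Klf4 is also 1 of the 12 immediate-early genes called higher in both.

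The stretches of 250 bases before the annotated start are given for Pparg and Adipoq, which only some MSC libraries held, and for Zfp423, which MNCs all but lacked, from the RefSeq promoters of GRCm38.p6, which matched 6 of the 10 genes. Capitals mark matches to the C/EBP motif TTGCNNAA on either strand, which 10.8% of all 32851 promoters hold within 300 bases.
Pparg, internal start, chr6:115421816-115422065, plus strand: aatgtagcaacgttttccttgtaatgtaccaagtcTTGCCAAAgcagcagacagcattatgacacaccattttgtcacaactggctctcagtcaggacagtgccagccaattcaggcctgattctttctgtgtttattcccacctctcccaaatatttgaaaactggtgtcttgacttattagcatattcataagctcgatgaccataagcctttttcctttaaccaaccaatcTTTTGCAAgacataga
Zfp423, upstream start, chr8:87959596-87959845, minus strand: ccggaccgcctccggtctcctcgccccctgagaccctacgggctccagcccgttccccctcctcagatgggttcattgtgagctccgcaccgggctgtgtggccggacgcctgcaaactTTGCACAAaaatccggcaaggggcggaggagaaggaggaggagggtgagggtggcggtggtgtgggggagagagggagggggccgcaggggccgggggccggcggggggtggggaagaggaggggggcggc
Adipoq, chr16:23146286-23146535, plus strand: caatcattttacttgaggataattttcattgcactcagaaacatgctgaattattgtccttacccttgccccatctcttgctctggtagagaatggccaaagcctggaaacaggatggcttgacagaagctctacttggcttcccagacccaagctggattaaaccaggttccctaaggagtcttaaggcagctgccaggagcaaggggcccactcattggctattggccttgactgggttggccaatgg
The internal Pparg start held 2 such matches and the upstream Zfp423 start held 1 before the start, while the Adipoq stretch held none. The printed Pparg start was the only 1 of its 3 with a match. Of all 12 promoters of the members, 4 held a match, the others being that of Plin1 and 1 of the 2 of Lepr. The PPAR motif, AGGTCA repeated after 1 free base (0.0396% of all promoters), and the EBF motif, TCCC and GGGA around 2 free bases (0.904% of all promoters), were searched on both strands and found in none of the 12 promoters of the 6 members. The RPKM of a gene joins all its starts, so it does not tell which Pparg start was used.

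Lepr (chr4:101717404-101815352, plus strand) was at like levels in MSCs and ECs and lower in MNCs. In Flt3+/+ mice its RPKM was 19.8, 60.3, 24.9, 76.5 and 47.9 in MSCs and 48.9, 22.2, 41.7, 45.5 and 37.2 in ECs. Those ranges overlapped, and the log2 fold change of MSCs over ECs was 0.39 ± 0.34, with an interval of 2 SE to each side from -0.30 to 1.07. In the 4 MNC libraries it was 3.39, 3.44, 2.19 and 1.86, below every EC and MSC library. MSCs exceeded MNCs by 3.95 ± 0.43 on the log2 scale (adjusted p = 8.39e-08) and ECs by 3.56 ± 0.42 (adjusted p = 3.75e-07). Pdgfra did not follow Lepr into ECs: across the 10 EC libraries Pdgfra was 0 to 1.82 RPKM, where it was 61.4 to 107 in MSCs. The EC library with the most Lepr, Flt3ITD/ITD replicate 5 (99.6 RPKM), also had 54.6 RPKM of the matrix gene Dcn. Flt3+/+ replicate 2 had 51.1 of Dcn with the lowest Flt3+/+ level of Lepr (22.2), and Flt3ITD/ITD replicate 1 had 0.77 of Dcn with 62.9 of Lepr. The latter also held 25.6 RPKM of Adipoq and 2.73 of the collagen gene Col1a2, named after its values were seen. Col1a2 was 9.85 in Flt3ITD/ITD replicate 5, 4.23 in Flt3+/+ replicate 1 (48.9 of Lepr) and at most 0.86 in the other ECs. Among those, Flt3ITD/ITD replicate 4 had 0.80 of Col1a2 with 51.5 of Lepr. The part of cells expressing Dcn or Col1a2 and of the smooth muscle and pericyte genes above in the EC level of Lepr was not tested. The gene for leptin itself, Lep, had at most 2 counts in any library. Leprot, the neighboring gene for a protein that limits receptor display (chr4:101647718-101659364, plus strand, not overlapping Lepr in the annotation), was 87.5, 97.8 and 58.1 RPKM on average in Flt3+/+ MSCs, ECs and MNCs, with no call. Of the 11 tested genes among 12 for leptin receptor signaling, 2 were called higher in MSCs than in ECs (13.6% of all genes). They were Irs1 and Irs2, adaptors of insulin and cytokine receptors (7.83 against 0.056 and 1.71 against 0.012 RPKM). These and Socs3, a feedback inhibitor of the receptor, were called higher in MSCs than in MNCs (19.1% of all genes). Socs3 was also called higher in ECs than in MNCs. It is 1 of the 12 immediate-early genes called higher in both populations.

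Lpl and Apoe, which handle lipoproteins, were highest in ECs. The RPKM of Lpl (chr8:68880491-68907448, plus strand) in Flt3+/+ ECs was 102, 164, 125, 131 and 202, and in Flt3+/+ MSCs it was 27.97, 41.3, 25.3, 29.1 and 25.7. The EC and MSC libraries did not overlap, and both lay above the MNC libraries (5.90 to 19.0). MSCs were below ECs by a log2 fold change of -2.11 ± 0.34 (adjusted p = 6.7e-05) and above MNCs by 1.62 ± 0.37 (adjusted p = 0.00118). Gpihbp1, which holds the lipase on the capillary wall, was 2650 ± 656 RPKM (SD, n = 5) in Flt3+/+ ECs and had no count in any MSC library.

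Apoe (chr7:19696109-19699188, minus strand) was 485, 359, 339, 768 and 644 RPKM in Flt3+/+ ECs, 58.8, 138, 212, 248.92 and 122 in Flt3+/+ MSCs and 7.87 to 27.6 in Flt3+/+ MNCs. The 3 populations formed separate ranges. The contrast of MSCs with ECs was called (-1.49 ± 0.56, adjusted p = 0.0588), but it was lost without any one of EC replicates 4 and 5 and MSC replicates 1, 2 and 5 (adjusted p = 0.103 to 0.134), and between the Flt3ITD/ITD groups it was -0.16 (adjusted p = 0.887). MSCs exceeded MNCs by 3.32 ± 0.66 (adjusted p = 0.000324) and ECs exceeded MNCs by 4.81 ± 0.71 (adjusted p = 1.01e-05). Of 15 other lipoprotein genes tested, 6 were called higher and 4 lower in MSCs than in ECs (13.6% and 11.7% of all genes). Among the former were the apolipoproteins Clu (4538 against 284 RPKM) and Apod (1104 against 2.76 RPKM) and the uptake receptor Lrp1 (36.7 against 0.204 RPKM), and among the latter the transfer protein Pltp (29.6 against 115 RPKM).

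Fabp4 (chr3:10204088-10208576, minus strand), a fatty acid carrier of adipocytes and capillaries, was the first or second most abundant of all genes in every EC library. Its RPKM was 14614, 18006, 16462, 11604 and 15980 in Flt3+/+ ECs and 15487, 15905, 14734, 13247 and 11710 in Flt3ITD/ITD ECs. In Flt3+/+ MSCs it was 4.57, 0, 0, 8.64 and 0.05, and in Flt3ITD/ITD MSCs 1 count was found in all 5 libraries together. The log2 fold change of Flt3+/+ MSCs against ECs was -12.30 ± 1.52 (adjusted p = 1.54e-06). Summed counts gave a ratio of 7046 for ECs over MSCs (exact Poisson 95% interval 6119 to 8156, counting error only). Of the 193 counts in Flt3+/+ MSCs, 157 came from replicate 4. The interval of 2 SE to each side of the log2 fold change was far wider, from -15.34 to -9.27. In MNCs Fabp4 was 1.08 to 8.21 RPKM in Flt3+/+ mice, a range that overlapped MSCs (log2 fold change of MSCs over MNCs -0.43, adjusted p = 0.807).

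Plin1, the coat protein of the fat droplet (chr7:79720218-79732903, minus strand), was above the floor of 3 counts in 1 of the 28 libraries, with 4 counts in Flt3ITD/ITD MNC replicate 1. It had no count in any Flt3+/+ MSC library, and its level could not be compared between groups. The adipocyte genes Cidec, Retn and Cfd were also at 0 in every MSC library. Of 30 mature adipocyte and lipid droplet genes, 21 were tested. Of these, 3 were called higher and 8 lower in MSCs than in ECs, as were 13.6% and 11.7% of all genes. Those lower included Cav1, the coat protein of caveolae (258 against 2073 RPKM), the lipase Mgll (134 RPKM in ECs) and the fatty acid carrier Fabp5 (4.78 against 512 RPKM). Scd1, which desaturates fatty acids, was higher in MSCs (41.2 against 3.24 RPKM). Against MNCs, 2 of the 21 were called higher and 9 lower in MSCs, as were 19.1% and 16.9% of all genes.

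Adipoq (chr16:23146536-23158028, plus strand), the fat cell hormone, was present in single libraries rather than in a population. In Flt3+/+ MSCs its RPKM was 0, 0, 0.11, 18.6 and 0, and in Flt3ITD/ITD MSCs it was 0.06, 49.5, 0, 153 and 0.31. In ECs it was 17.4, 0.96, 0.06, 0 and 0.02 in Flt3+/+ mice and 25.6, 0.03, 0.03, 0.55 and 30.9 in Flt3ITD/ITD mice. Thus 3 of 10 MSC libraries and 3 of 10 EC libraries exceeded 15 RPKM, and the 2 genotypes overlapped in both populations. None of the 4 Flt3+/+ MNC libraries held a count. With those libraries at the floor of 3 counts, the mean was at least 27.3-fold higher in MSCs and at least 26.9-fold higher in ECs. The calls (adjusted p = 0.0871 and 0.0933) rested on MSC replicate 4 and EC replicate 1, without which the adjusted p was 0.61 and 0.291, and also fell away without any one of the 4 MNC libraries (adjusted p = 0.147 to 0.162). Genes of leptin receptor-positive stroma did not all go with Adipoq. Gdpd2 was 5.55, 12.7 and 58.4 RPKM in the 3 MSC libraries with Adipoq (Flt3+/+ replicate 4 and Flt3ITD/ITD replicates 2 and 4) and at most 2.2 in the other 7. The chemokine Cxcl12 was 363, 413 and 981 RPKM in those 3, but also 767 and 475 in Flt3ITD/ITD replicates 5 and 1, where Adipoq was at most 0.31. The cytokine gene Il7 was 13.1, 1.81 and 0 RPKM in those 3 and 24.2 in Flt3+/+ replicate 1, which had no Adipoq. Flt3ITD/ITD EC replicate 5 held, besides 30.9 RPKM of Adipoq, 19.8 of Gdpd2 and 217 of Spp1, the gene of the bone matrix protein osteopontin. Of 22 genes listed for leptin receptor-positive stroma, 21 were above the floor in Flt3+/+ EC replicate 1 and 20 each in Flt3ITD/ITD EC replicates 1 and 5. In the ECs with less Adipoq, 15 to 17 were. These genes and counts were chosen for print after their values were seen, and their part in the Adipoq levels was not tested.

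**Figure D3:**
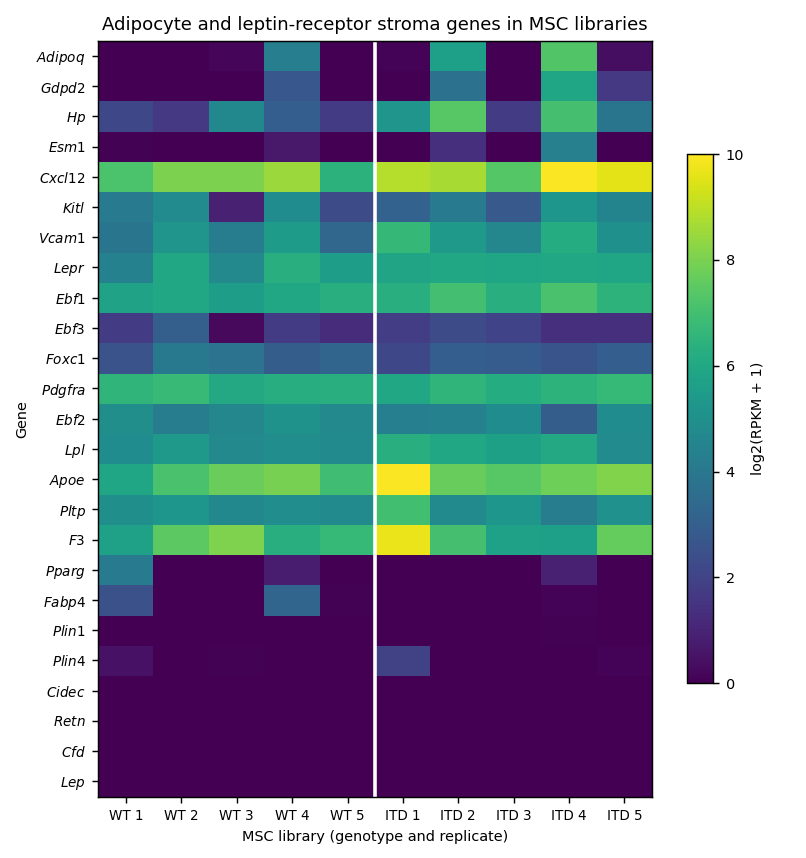
Log2(RPKM + 1), from dark (0) to bright (10), of 8 of the members and of genes of adipocytes and leptin receptor-positive stroma (vertical axis) in the 10 MSC libraries (horizontal axis, replicates 1 to 5 of wild type and of Flt3-ITD). Adipoq, Gdpd2 and Esm1 were brightest in Flt3-ITD replicate 4, Apoe and F3 in Flt3-ITD replicate 1, and Plin1, Cidec, Retn, Cfd and Lep were dark in all 10.

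Whether the Flt3-ITD changed these genes was asked within each population. None of them was called in MSCs, ECs or MNCs. In MSCs 6 members could be tested, and edgeR's quasi-likelihood test called 0 of them, where it called 0.0295% of 13574 genes (4 genes, all lower in Flt3ITD/ITD). At an unadjusted p below 0.05 there were 2 members, Lpl and Apoe, where 4.24% of all genes passed, and DESeq2 called 193 genes and no member. The median log2 fold change of the 6 members was 0.35 against 0.03 for all genes. No member's RPKM was separate between genotypes in MSCs, as it was for 0.914% of all genes.

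Lpl came nearest to a difference in MSCs. Flt3+/+ libraries ran from 25.3 to 41.3 RPKM, and Flt3ITD/ITD libraries had 77.8, 60.8, 50.9, 65.1 and 27.0, so that 4 of 5 lay above every Flt3+/+ library and replicate 5 lay among them. Flt3ITD/ITD replicate 5 was also the library with the highest leukocyte marker sum and the lowest depth of the MSCs (10674182 counts). Whether either bore on its Lpl level was not tested. The log2 fold change was 1.03 ± 0.30 (adjusted p = 0.999 in edgeR's quasi-likelihood test). DESeq2 gave 1.05 with an adjusted p of 0.0974, without a call, since the log2 ratio of mean RPKM was 0.92. A two-sided exact permutation test of RPKM gave p = 0.0317 (0.868 after Benjamini-Hochberg adjustment over the 30 such tests of the 10 members in 3 populations), where 5 against 5 libraries allow no p below 0.00794. Leaving out single libraries, the exact permutation p ranged from 0.00794 without Flt3ITD/ITD replicate 5 to 0.0714 without replicate 1, and was over 0.05 without replicates 1, 2 and 4.

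Apoe in MSCs was higher in Flt3ITD/ITD on average (367 ± 340 against 156 ± 75.3 RPKM, SD, n = 5 each). Flt3ITD/ITD replicate 1 held 971 RPKM and the other 4 held 167 to 275, within or just above the Flt3+/+ range of 58.8 to 248.92. The log2 fold change was 1.27 ± 0.53 (adjusted p = 0.999 in edgeR's quasi-likelihood test) and 0.52 without that library. The exact permutation p was 0.111, and 0.0397 to 0.381 when single libraries were left out, below 0.05 only without Flt3ITD/ITD replicate 3. Flt3ITD/ITD replicate 1 also held 836 RPKM of F3, the gene of tissue factor, and 123 RPKM of Pltp, both named after their values were seen.

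Lepr did not differ detectably between genotypes in MSCs. Flt3ITD/ITD libraries had 56.1, 61.2, 60.0, 63.3 and 57.1 RPKM, all inside the Flt3+/+ range of 19.8 to 76.5. The log2 fold change was 0.40 ± 0.31, with an interval of 2 SE to each side from -0.23 to 1.03. The ratio of SD to mean was 0.519 in Flt3+/+ and 0.0494 in Flt3ITD/ITD MSCs, and this difference in spread was not tested. Cebpd was 14.3, 21.6, 17.5, 12.8 and 16.8 RPKM in Flt3ITD/ITD MSCs, inside the Flt3+/+ range. Zfp423 was 0.24, 1.93, 2.42, 2.79 and 7.75 RPKM there, with replicate 1 below and replicate 5 above every Flt3+/+ library. The log2 fold changes of the other members tested were -0.33 ± 0.33 for Ebf2, 0.17 ± 0.51 for Cebpd and 0.31 ± 0.70 for Zfp423. Pparg, Fabp4, Plin1 and Adipoq were present in too few MSC libraries to enter the test. Without the filter, edgeR's quasi-likelihood test gave -4.00 ± 2.64 for Pparg (adjusted p = 0.714), -6.91 ± 2.30 for Fabp4 (adjusted p = 0.598), 2.62 ± 1.20 for Plin1 (adjusted p = 0.607) and 3.61 ± 2.47 for Adipoq (adjusted p = 0.714). The Plin1 value rested on 1 count in Flt3ITD/ITD replicate 3 and 2 in replicate 4. Both are below the floor of 3 counts, so it does not compare levels. In the list of 22 genes of leptin receptor-positive stroma, none was called between genotypes in MSCs, and 5 of 18 tested had an unadjusted p below 0.05 (4.24% of all genes did). They were Ebf1, Cxcl12, Hp, Vcam1 and Angpt1, named after their values were seen. Their log2 fold changes were 0.79, 1.42, 3.22, 1.29 and 1.52, each with an adjusted p of 0.999 in edgeR's quasi-likelihood test.

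**Figure D4:**
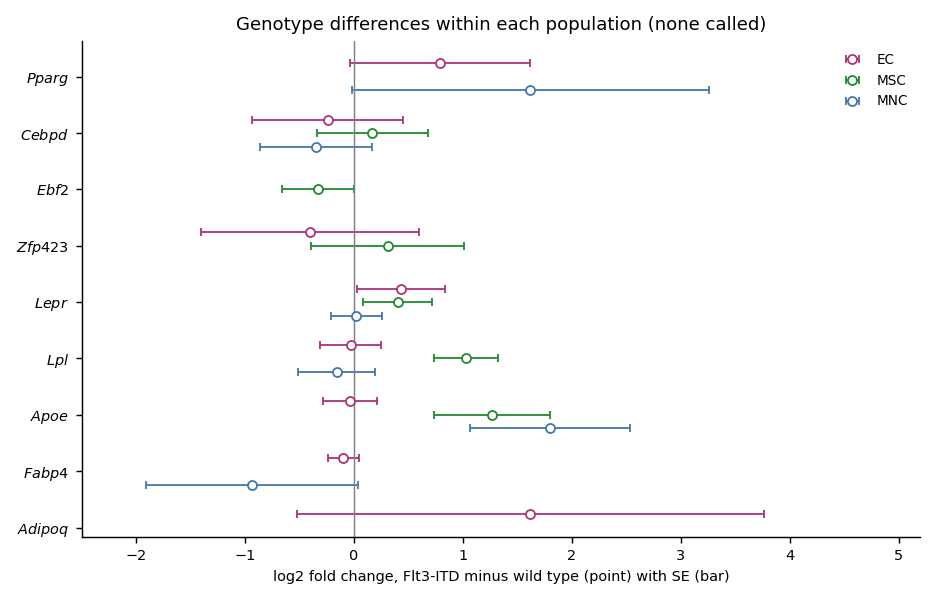
Log2 fold change of Flt3-ITD over wild type (points) with its standard error (bars) for the members that could be tested in MSCs, ECs and MNCs. No point was called, and Lpl (1.03) and Apoe (1.27) in MSCs and Apoe (1.80) in MNCs lay more than 2 standard errors above 0.

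In ECs, 8 members were tested, and edgeR called 0 of them, where it called 0.0081% of 12351 genes. No member had an unadjusted p below 0.05 (4.99% of all genes did), and DESeq2 called 362 genes and no member. In Flt3ITD/ITD ECs, Lpl was 105, 207, 173, 129 and 90.3 RPKM and Apoe was 405, 490, 604, 347 and 620 RPKM, both overlapping the Flt3+/+ libraries. Lepr was 62.9, 16.3, 42.3, 51.5 and 99.6 RPKM, with 3 of the 5 above every Flt3+/+ EC library and 1 below. Fabp4 was the most tightly bounded, at -0.10 ± 0.14 on the log2 scale. Lpl (-0.03 ± 0.28) and Apoe (-0.04 ± 0.25) were near 0, Lepr was 0.43 ± 0.40, and Pparg was 0.79 ± 0.83 with EC replicate 3 of Flt3+/+ at 0.61 RPKM. In MNCs, 6 members were tested and edgeR called 0, where it called 0.0144% of 13926 genes. A single member, Apoe, had an unadjusted p below 0.05, as did 10.4% of all genes, and DESeq2 called 322 genes and no member. Apoe in Flt3ITD/ITD MNCs was 29.0, 159, 9.38 and 51.3 RPKM against 19.5, 27.6, 7.87 and 8.36 in Flt3+/+ MNCs, ranges that overlapped, with a log2 fold change of 1.80 ± 0.73 (adjusted p = 0.45 in edgeR's quasi-likelihood test) and 0.74 without Flt3ITD/ITD replicate 2. That library also stood apart in stromal genes, with 25.9 RPKM of Cxcl12, where the other MNC libraries had at most 1.33, and 9.14 of Ibsp. Between genotypes in MNCs, the 10 macrophage markers summed to 211 to 361 RPKM in Flt3+/+ and 313 to 595 in Flt3ITD/ITD, the sum being 313 in replicate 2, and the erythroid markers to 3.21 to 1806 and 43.4 to 247. Of the macrophage markers, 4 of the 7 tested had an unadjusted p below 0.05, with a median log2 fold change of 0.62, and of the erythroid markers 2 of the 4, with a median of -2.88. The part of these cells in the Apoe level was not tested. Lepr was 3.04, 3.65, 2.60 and 2.92 RPKM in Flt3ITD/ITD MNCs, overlapping the Flt3+/+ libraries, with a log2 fold change of 0.02 ± 0.24. No member was separate between genotypes by RPKM in ECs (1.14% of all genes) or in MNCs (6.71% of all genes).

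The difference of the genotype effect between populations was tested as an interaction. Between MSCs and ECs, edgeR's quasi-likelihood test called 0 of 9 members and 0.379% of 16897 genes. Lpl (1.07 ± 0.47, adjusted p = 0.395) and Fabp4 (-6.78 ± 1.88, adjusted p = 0.129) had an unadjusted p below 0.05, as did 10.6% of all genes. Fabp4 entered this test through its level in ECs. Its value rested on counts of 0 to 157 in MSCs, it was called without Flt3+/+ MSC replicate 2 (adjusted p = 0.0979), and DESeq2 called it (adjusted p = 0.00554). Between MSCs and MNCs, 0 of 9 members and 0.00592% of all genes were called, and 2 members had an unadjusted p below 0.05, as did 5.94% of all genes, Lpl being at 1.20 ± 0.50 (adjusted p = 0.707). The 2 interactions share the MSC libraries.

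The genes whose log2(RPKM + 1) followed Lepr most closely across the 10 MSC libraries, among 12493 genes, were Nfs1 (r = 0.91), Clcn4-2 (0.90), Gsta4 (0.89), Trmt10c (0.88) and Pofut2 (0.87), and are given as a description. Without the 2 libraries farthest from the median Lepr level, r was 0.80, 0.14, 0.26, 0.60 and 0.60. Of the members, Cebpd (0.70), Apoe (0.48), Lpl (0.47) and Adipoq (0.45) had positive values and Pparg (-0.62), Ebf2 (-0.25), Zfp423 (-0.17) and Fabp4 (-0.16) negative ones. Without the same 2 libraries these became 0.05, 0.08, 0.08 and 0.56 for the former and 0.69, 0.03, -0.17 and 0.75 for the latter, so that most rested on those libraries. Pparg exceeded 0 RPKM only in Flt3+/+ replicates 1 (16.6) and 4 (0.76) and Flt3ITD/ITD replicate 4 (0.88). Fabp4 was 4.57 and 8.64 in Flt3+/+ replicates 1 and 4 and at most 0.06 elsewhere. The r values of both thus rest on few libraries. These libraries share the sort and the amplification, and their depth ranged from 10674182 to 33714502 counts.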

How the data were processed

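RNA-seq libraries of sorted ECs, MSCs and total MNCs from Flt3+/+ and Flt3ITD/ITD marrow were analysed, 28 in all. cDNA was amplified from 100 or 200 cells, without molecular identifiers. The authors deposited, per gene and library, estimated counts in whole numbers and RPKM values, and the submitters' processing notes name Bowtie, RSEM and mm10, with no versions given in the sources used here. Amplification from few cells and reads shared between near-identical copies or overlapping genes can move single values; Pparg, Ebf2 and Cebpd overlap other annotated genes, and counting by strand is not stated. No value column was left unmapped.

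The 10 members and the companion lists were chosen with earlier results of these data known, the lists from general knowledge. Counts were tested with edgeR 4.0.16 (TMM, filterByExpr, quasi-likelihood test, R 4.3.3, limma 3.58.1), within each population for genotype and over 6 groups for population contrasts and interactions, with Benjamini-Hochberg adjustment over all genes tested. Calls required an adjusted p below 0.1 and, except for interactions, group mean RPKM at least 1 apart on the log2 scale. Fold changes are edgeR's log2 values, and levels are RPKM. Standard errors were taken as the size of the fold change divided by the square root of the test's F statistic. They thus restate the result of the test and are no separate measure of precision. Members' RPKM were also compared by two-sided exact permutation tests. Named companions were, per list and contrast, up to 4 called genes with the highest mean RPKM in wild-type MSCs, besides Leprot, Gpihbp1, Lep, Cebpa and Cebpb and those said to be named after their values were seen. Alternatives were DESeq2 1.42.0, RLE size factors, no low-count filter, the adjusted p alone, a replicate block, the Flt3-ITD groups, other pseudocounts and leaving out each library. The fits were tested on simulated data. Positions are GRCm38 with GENCODE M21, and promoters are RefSeq (GRCm38.p6). No replicate pair agreed within sampling noise. P-values weigh group differences against the spread between libraries, which joins differences between mice with those of amplification from few cells.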

Additional observations from a re-analysis of the deposited data

Results flagged for a closer look

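Of 58 groups of 4 or 5 libraries tested, 15 held a library far from the others by Dixon's criterion, where chance gives about 5%. Many of these groups were at or near 0 in the other libraries. In MSCs, the libraries set apart were Pparg in Flt3+/+ replicate 1 (16.6 RPKM) and Flt3ITD/ITD replicate 4 (0.88 RPKM), Cebpd in Flt3+/+ replicate 1 (1.72 RPKM), Lpl in Flt3+/+ replicate 2 (41.3 RPKM), Apoe in Flt3ITD/ITD replicate 1 (971 RPKM), Fabp4 in Flt3ITD/ITD replicate 4 (0.06 RPKM) and Adipoq in Flt3+/+ replicate 4 (18.6 RPKM). In ECs they were Ebf2 in Flt3+/+ replicate 4 (5.96 RPKM) and Flt3ITD/ITD replicate 1 (2.22 RPKM), Plin1 in Flt3ITD/ITD replicate 3 (0.03 RPKM) and Adipoq in Flt3+/+ replicate 1 (17.4 RPKM). In MNCs they were Pparg in Flt3+/+ replicate 2 (2.43 RPKM), Ebf2 in Flt3ITD/ITD replicate 2 (0.01 RPKM) and Zfp423 in Flt3+/+ replicate 1 and Flt3ITD/ITD replicate 2 (0.01 RPKM each). The values of 0.01, 0.03 and 0.06 RPKM are single counts.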

How the results depend on the processing

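The counts of genes called between genotypes depended on the test. In MSCs, where edgeR called 4, DESeq2 called 193, the fit without a low-count filter 2, and leaving out single libraries gave 0 to 2. In ECs, against 1, these were 362, 0 and 0 throughout, and in MNCs, against 2, DESeq2 called 322 and leaving out libraries gave 0 to 1. For the interaction of MSCs with ECs (64 genes), DESeq2 called 961, no filter 12 and leaving out libraries 3 to 125, with 0 to 1 members, and DESeq2 called 1 member. For MSCs with MNCs (1 gene), DESeq2 called 388 genes and 2 members, Fabp4 and Adipoq, with Adipoq at 0 in all Flt3+/+ MNC libraries, and leaving out libraries gave 1 to 4 genes. Exact tests below 0.05 numbered 0 to 2 when libraries were left out. With a pseudocount of 0.1, 3 of the 5 genes most like Lepr remained. The cause of these shifts was not tested.

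Replicate numbers gave no clear pairing. Same-numbered Flt3+/+ and Flt3ITD/ITD libraries, which are from different mice, correlated at most at 0.0786. Of these, 3 of 5 MSC, 2 of 5 EC and 1 of 4 MNC libraries correlated best with their own number. Between Flt3+/+ populations, same-numbered libraries correlated at most at 0.0458. The own number was best in 3 of 4 for MSCs with MNCs, 1 of 5 for MSCs with ECs and 0 of 4 for ECs with MNCs. In Flt3ITD/ITD these were 1 of 4, 0 of 5 and 0 of 4. These values do not settle whether populations shared a mouse. With the replicate block, 0 genes were called between genotypes in MSCs, ECs and MNCs and 1 in the interaction of MSCs with ECs. The block gave -0.06 for Zfp423 between genotypes in MSCs, -0.25 for Adipoq between MSCs and ECs and 0.06 for the Lepr interaction of MSCs with ECs, which DESeq2 and RLE size factors gave as 0.02. Between the Flt3ITD/ITD groups, Pparg in MSCs against MNCs was -2.94.

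Direction changed when a library was left out for these uncalled log2 values. Between genotypes they were Cebpd (-0.12 to 0.34) and Zfp423 (-0.34 to 0.61) in MSCs, Cebpd (-0.95 to 0.02), Lpl (-0.23 to 0.15) and Apoe (-0.15 to 0.11) in ECs, and Lepr (-0.09 to 0.10) and Lpl (-0.38 to 0.19) in MNCs. Between populations they were Adipoq in MSCs against ECs (-6.53 to 3.97), and Pparg (-1.44 to 10.12) and Fabp4 (-1.79 to 0.26) in MSCs against MNCs. For the interaction with ECs they were Ebf2 (-2.63 to 6.24), Lepr (-0.24 to 0.28) and Adipoq (-1.74 to 8.79), and with MNCs Zfp423 (-1.35 to 2.09), Apoe (-1.29 to 0.54) and Adipoq (-4.0 to 4.6).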
